A study of Mus musculus with 6 samples.

Results

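The 39 genes described here act in G2 and mitosis, from cyclin B and its kinase Cdk1 to the motors, kinetochore proteins and condensins of dividing cells. They are given by a list of symbols, and all 39 were found among the 24062 genes of the count table. The cells were mouse embryonic fibroblasts, connective tissue cells grown from C57BL/6 embryos. A first group of 3 libraries, p27 OE, came from cells given a lentivirus that overexpresses p27, an inhibitor of cyclin-dependent kinases and the product of Cdkn1b. A second group of 3, EV control, carries an abbreviation that the labels do not spell out, and the labels do not say what virus, if any, these cells received. RNA was taken on day 4, and the titles call the p27 OE cells non-senescent. The labels name no other allele or agent. A dataset tag stands in the titles of the EV control libraries alone, and no label says that the numbered libraries are separate cultures. The p-values therefore measure only the spread between these libraries.

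A cell enters mitosis when the kinase Cdk1, bound to cyclin B, is switched on, and it leaves mitosis when the anaphase-promoting complex has cyclin B destroyed. The genes for this machinery are transcribed together late in the cycle, driven by the factors B-Myb (Mybl2) and FoxM1 with a core complex called MuvB. In resting cells, or in cells whose cyclin-dependent kinases are blocked, MuvB joins the pocket proteins and E2F4 in the DREAM complex, which holds the same genes low through a promoter element named CHR. p27 blocks mainly the cyclin E and cyclin A kinases, which act upstream of this switch. The comparison thus asks how far the mitotic transcripts of cells that carry extra p27 mRNA, labelled non-senescent, differ from those of the control.

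In EV control 1, 2 and 3 Cdkn1b was at 52.2, 49.9 and 51.2 CPM, a count scaled by library size and comparable between libraries for 1 gene. In p27 OE 1, 2 and 3 its level was 419, 978 and 460.0 CPM, so p27 OE 2 carried the most. Its counts join the cell's own transcript and that of the virus, and its log2 fold change of 3.60 ± 0.35 had an edgeR adjusted p of 0.180 without pairing and 0.0873 with it. Total counts ran from 34920728 to 52098220 per library. The libraries numbered 1 stood apart: Xist, the RNA of the inactive X chromosome, was at 317 and 477 CPM there (EV control, p27 OE). It was at 5.93 and 9.57 CPM in those numbered 2 and at 0.601 and 0.504 CPM in those numbered 3. The Y chromosome gene Ddx3y was at 0.0556 and 0.0220 CPM in number 1 and at 54.3 to 65.5 CPM in the other 4. By these genes the libraries numbered 1 read as female and the others as mainly male. Sex thus goes with the library number, and its part in the values below was not tested. All 9 fibroblast markers examined were present, with a summed level of 54088 to 59137 CPM in EV control and 58082 to 59976 CPM in p27 OE. Markers of other cells summed to 44.0 to 54.1 CPM in EV control and 40.3 to 72.2 CPM in p27 OE for 8 leukocyte genes and to 43.9 to 69.7 and 63.4 to 85.5 CPM for 6 neural genes. Most of the leukocyte sum was Lyz2, at 28.6 to 53.1 CPM over the 6 libraries, and most of the neural sum was Tubb3, at 30.3 to 66.3 CPM. The 6 endothelial genes summed to 2.94 to 4.57 and 4.80 to 5.29 CPM, the 6 epithelial genes to 10.6 to 12.1 and 9.41 to 9.69 CPM, and the 6 muscle genes to 2.60 to 2.78 and 2.14 to 3.32 CPM. The T cell gene Cd3e, the neuron gene Rbfox3 and the muscle genes Myf5 and Ckm were at 0 in all 6 libraries. In the paired edgeR fit 2 of the 9 fibroblast genes, Pdgfra and Lum, were called lower, where 3.63% of all genes were. Emr1 (1 of 6 leukocyte genes tested), Emcn (1 of 3 endothelial) and Tubb3 (1 of 5 neural) were called higher, where 3.80% of all genes were. Each of these lists also held uncalled markers with a change of the opposite sign, among them Col1a1, Thy1, Cd68, Kdr and Sox10. Whether such cells were present, and what part they have in the values below, was not tested.

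The summed level of the mitotic transcripts differed between the groups by less than the spread among libraries. The 39 genes summed to 1758, 1514 and 1486 CPM in EV control 1, 2 and 3 and to 1933, 1368 and 1510 CPM in p27 OE 1, 2 and 3. The means were 1586 ± 149 and 1604 ± 294 CPM (SD, n = 3), and the p27 OE group held both the highest and the lowest library. All 39 genes passed the filter on low counts, with 203 counts (Cdc25c) to 7094 counts (Top2a) per gene and library. The median log2 fold change of p27 OE over EV control was -0.0057 over the 39 genes and -0.0013 over all 14090 tested genes, and 33 of the 39 genes lay within 0.2 of 0. In such bulk RNA, fewer dividing cells and less mitotic RNA per cell cannot be told apart.

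By edgeR's quasi-likelihood test without pairing, 0 of the 39 genes and 0 of all 14090 were called at an adjusted p of 0.05, and the smallest adjusted p among the 39 was 0.683 (Cdc25b). At an unadjusted p under 0.05, 2 of the 39 were lower (Cdc25b and Cenpa), where 4.02% of all tested genes were lower, and 0 were higher, where 3.20% were. DESeq2 called 0 of the 39, and 0.362% of all genes as higher and 0.220% as lower. With the library number as a block, which compares p27 OE with the EV control library of the same number, edgeR called the same Cdc25b and Cenpa as lower, 2 of 39 where 3.63% of all genes were lower. None of the 39 was called higher in this paired fit, where 3.80% of all genes were. The count of 2 is close to that background share, and the same 2 were called with RLE scaling (3.37% of all genes lower) and upper-quartile scaling (5.22%). Paired DESeq2 called Cdc25b alone as lower, where 2.37% of all genes were, and 0 of the 39 as higher, where 3.36% were. Without the libraries numbered 1, 2 or 3, paired edgeR called 3, 1 and 1 of the 39 as lower (6.04%, 2.97% and 0.746% of all genes) and 0, 3 and 0 as higher (6.36%, 3.51% and 1.58%). The groups did not overlap in 3 of the 39 genes: Cdc25b and Cenpa had all p27 OE libraries under all control libraries (8.28% of all genes) and Prc1 had them all above (6.61% of all genes).

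**Figure D1:**
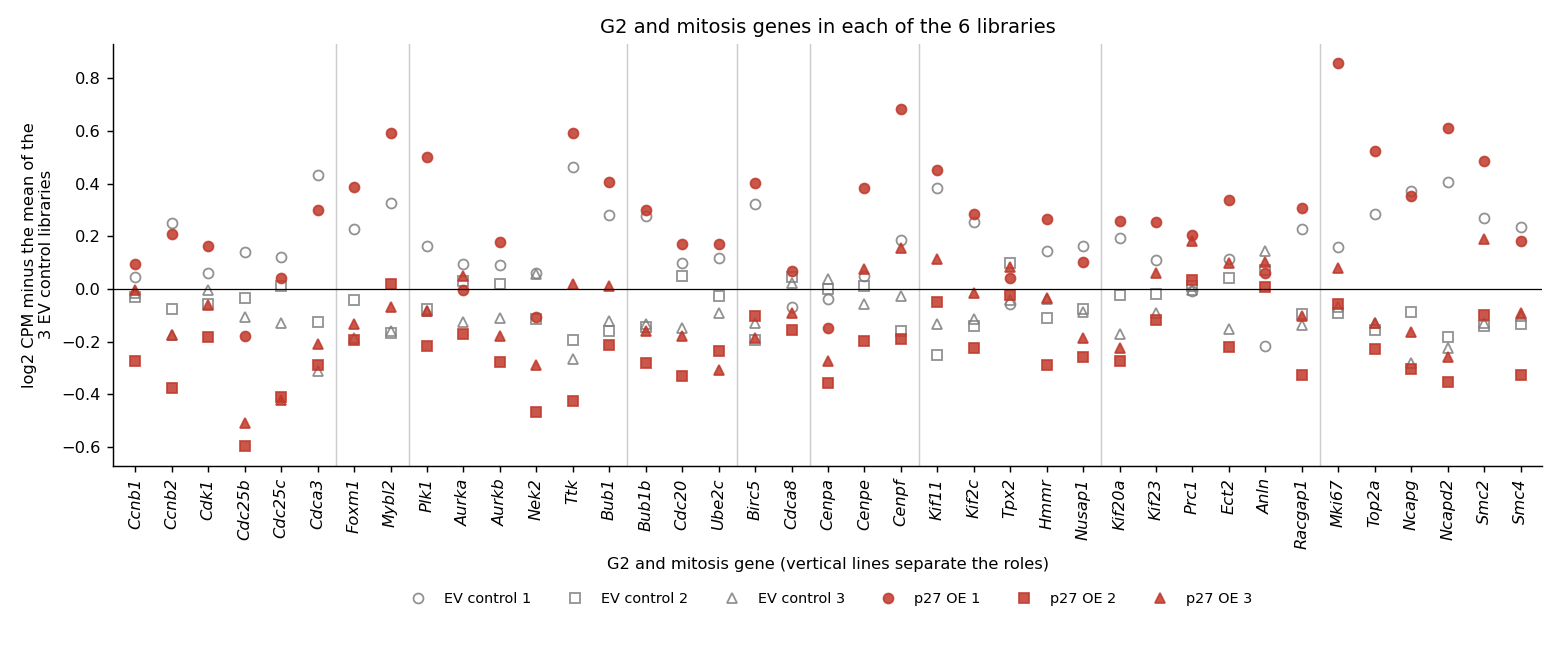
Each gene (x axis, grouped by role) is plotted as log2 CPM minus the mean log2 CPM of the 3 EV control libraries (y axis), with open grey symbols for EV control and filled red symbols for p27 OE. The red circles (p27 OE 1) are the highest of the 6 libraries in 27 of the 39 genes and the red squares (p27 OE 2) are the lowest in 28.

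The libraries of different numbers did not behave alike. Within number 1, p27 OE over EV control, 29 of the 39 genes were higher (74.4%, against 48.6% of all tested genes), with a median log2 ratio of 0.09. Within number 2, 33 were lower (84.6%, against 50.8% of all), with a median of -0.18. Within number 3, 23 were higher (59.0%, against 49.7% of all) and 16 lower, with a median of 0.01. The number 2 p27 OE library, with the lowest level in 28 of the 39 genes, is the one in which Cdkn1b was highest, 19.6-fold over its control, against 8.02-fold and 8.99-fold in numbers 1 and 3. With 1 library of each group in a number, neither this difference between the numbers nor its relation to the amount of Cdkn1b could be tested. EV control 1 was itself above the other EV control libraries in 34 of the 39 genes.

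The group median turned on single libraries. It was -0.16 without p27 OE 1, 0.09 without p27 OE 2 and 0.11 without EV control 1. Over the 3 numbers, 5 genes were higher in each (12.8%, against 21.8% of all genes): Mybl2, Kif11, Prc1, Mki67 and Smc2. Another 6 were lower in each (15.4%, against 23.7% of all): Ccnb2, Cdc25b, Cdc25c, Nek2, Cenpa and Nusap1. A further 14, among them Ccnb1, Foxm1, Plk1 and Top2a, were higher in numbers 1 and 3 and lower in number 2 (35.9%, against 8.77% of all), a pattern singled out after its values were seen.

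**Figure D2:**
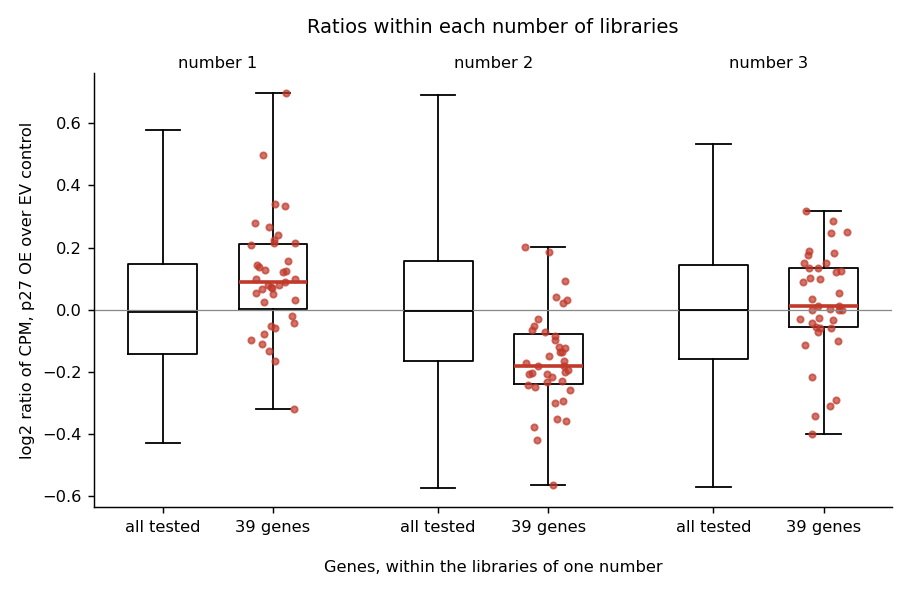
Boxes give the log2 ratio of CPM in p27 OE over EV control (y axis) within the libraries of number 1, 2 and 3, for all tested genes (black median, whiskers from the 5th to the 95th percentile) and for the 39 G2 and mitosis genes (red median and 1 point per gene, whiskers over the full range). The median of the 39 is 0.09, -0.18 and 0.01, and that of all tested genes is -0.01, -0.00 and -0.00.

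The genes of cyclins B1 and B2, Cdk1, 2 CDC25 phosphatases and Cdca3 form a group of 6. Their log2 fold changes ran from -0.42 to -0.02, all below 0, as were 7082 of the 14090 tested genes, and 1 was called lower in the paired fit, where 3.63% of all genes were. Within number 1, 2 of the 6 were above 0. Cdc25b, the phosphatase that removes the inhibitory phosphates from Cdk1 at the start of mitosis, was at 40.6, 36.0 and 34.2 CPM in EV control 1, 2 and 3. Its p27 OE libraries 1, 2 and 3 held 32.5, 24.4 and 25.9 CPM. Each p27 OE library lay below each EV control library, and the largest gap within a number was in number 2. In the paired edgeR fit Cdc25b fell by 0.43 ± 0.07 on the log2 scale (SE, n = 3 pairs, adjusted p 0.00422), which is 1.34-fold. Its change was -0.42 ± 0.13 (adjusted p 0.683) without pairing. It stayed called in the paired fit without the libraries numbered 1 (adjusted p 0.000680), 2 (0.00611) or 3 (0.0200), and paired DESeq2 gave 0.00109. Cdc25b occupies chr2:131186949-131198497 of GRCm38, forward strand, and 2.5% of its exonic bases overlap Spef1 on the other strand, which this kit cannot separate.

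Cdc25c, the related phosphatase, was at 7.83, 7.26 and 6.59 CPM in EV control, and the p27 OE libraries held 7.43, 5.43 and 5.38 CPM, so the groups overlapped (-0.26 ± 0.13 in the paired fit, adjusted p 0.240). Ccnb1, cyclin B1, was at 51.8, 49.2 and 49.6 CPM in EV control, and in p27 OE it stood at 53.6, 41.6 and 50.1 CPM. Only p27 OE 2 left the range of the controls by more than 2 CPM. Cdk1, the kinase itself, was at 64.8, 59.6 and 62.0 CPM in EV control, and its p27 OE levels were 69.4, 54.7 and 59.5 CPM. The changes of Ccnb1 and Cdk1, -0.05 ± 0.10 and -0.02 ± 0.10, were smaller than their errors. Ccnb2 (cyclin B2) changed by -0.11 ± 0.18 and Cdca3, an F-box-like protein that helps remove the Cdk1-inhibiting kinase Wee1, by -0.08 ± 0.24.

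Of the transcription factors, Foxm1 was at 42.8, 35.5 and 32.1 CPM in EV control, and the p27 OE libraries held 47.8, 32.0 and 33.3 CPM (0.03 ± 0.18). Mybl2 was at 13.4, 9.55 and 9.59 CPM in EV control, and in p27 OE it stood at 16.1, 10.9 and 10.2 CPM, higher in each number by 0.27, 0.18 and 0.09 on the log2 scale, but not called (paired 0.18 ± 0.10, adjusted p 0.277). For both factors the library numbered 1 was the highest of its group. None of 13 genes of the DREAM and MuvB complexes, a list that holds Foxm1 and Mybl2, was called in either fit (3.63% of all genes lower and 3.80% higher with pairing), and their changes ran from -0.12 to 0.19. The pocket protein genes Rbl1 (p107) and Rbl2 (p130) were at 14.5 ± 2.28 and 39.9 ± 1.92 CPM (SD, n = 3) in EV control, and their p27 OE levels were 14.8 ± 2.81 and 38.0 ± 3.32 CPM.

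The promoters of these genes share letters that the choice of members did not use. RefSeq promoter windows of GRCm38, 250 bases before the start and 50 after, were used for 33 of the 39 genes and 10476 of the 14090 tested genes. Only the first window listed for a gene was kept, and some lie inside the annotated gene. That of Kif2c, chr4:117178723-117179022, lies within the gene at chr4:117159639-117182639 (reverse strand) and is counted below among those with CHR letters. No window of Smc4, Kif20a, Tpx2, Aurkb, Foxm1 or Cdc25c was used, so the shares below leave these members out. CHR letters, TTTGAA or TTTAAA on either strand, occurred in 28 of the 33 (84.8%), against 18.7% of the windows of tested genes. CCAAT on either strand, the box bound by the factor NF-Y, occurred in 28 (84.8%, against 38.4%), and both in 25 (75.8%, against 7.56%). At 2 or more positions CCAAT occurred in 18 (54.5%, against 14.5%), and in 1 window, that of Cdca8, a CHR match and a CCAAT match overlapped. TTTCGCGC or TTTGGCGC on either strand, a form of the E2F site, occurred in 2 windows (6.06%, against 1.56%). A match of letters is no proof of a site in use, and a window without them may hold another form of the element.

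The windows below belong to the genes with the lowest ratios (Cdc25b, Cenpa, Nek2), to the Cdk1 and cyclin B1 genes, whose change was near 0, and to genes higher in each number (Mki67, Prc1). They run 5′ to 3′ on the strand of the gene from 150 bases before the RefSeq start to 30 after it, and capitals mark CHR and CCAAT letters on either strand (ATTGG and TTCAAA are the reverse forms).
Cdc25b: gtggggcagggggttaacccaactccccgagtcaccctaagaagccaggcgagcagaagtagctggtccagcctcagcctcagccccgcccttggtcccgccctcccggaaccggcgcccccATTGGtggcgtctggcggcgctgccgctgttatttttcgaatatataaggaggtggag
Cenpa: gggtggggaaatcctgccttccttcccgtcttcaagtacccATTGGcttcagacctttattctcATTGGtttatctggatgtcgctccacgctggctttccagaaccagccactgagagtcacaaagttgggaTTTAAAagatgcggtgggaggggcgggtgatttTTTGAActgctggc
Nek2: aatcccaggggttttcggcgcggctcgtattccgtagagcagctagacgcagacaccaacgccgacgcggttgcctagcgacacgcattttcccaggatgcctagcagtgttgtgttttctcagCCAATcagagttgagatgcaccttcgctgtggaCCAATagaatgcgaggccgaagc
Ccnb1: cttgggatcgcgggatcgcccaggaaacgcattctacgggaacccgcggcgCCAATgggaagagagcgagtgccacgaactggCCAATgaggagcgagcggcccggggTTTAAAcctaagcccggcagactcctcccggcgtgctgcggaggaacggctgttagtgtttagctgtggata
Cdk1: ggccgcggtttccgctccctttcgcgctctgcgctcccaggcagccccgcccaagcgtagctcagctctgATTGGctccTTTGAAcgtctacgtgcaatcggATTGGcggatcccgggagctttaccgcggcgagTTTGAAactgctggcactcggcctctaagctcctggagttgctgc
Mki67: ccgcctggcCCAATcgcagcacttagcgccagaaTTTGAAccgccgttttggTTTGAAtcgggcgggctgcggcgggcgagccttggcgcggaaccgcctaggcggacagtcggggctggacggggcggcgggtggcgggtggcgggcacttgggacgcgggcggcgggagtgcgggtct
Prc1: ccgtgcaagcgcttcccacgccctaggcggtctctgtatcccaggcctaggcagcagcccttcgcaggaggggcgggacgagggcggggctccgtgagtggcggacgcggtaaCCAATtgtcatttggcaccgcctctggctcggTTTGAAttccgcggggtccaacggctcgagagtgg
Their positions in GRCm38 are chr2:131186798-131186977 (forward strand) for Cdc25b, chr5:30666736-30666915 (forward strand) for Cenpa, chr1:191821323-191821502 (forward strand) for Nek2 and chr13:100786457-100786636 (reverse strand) for Ccnb1. The others are chr10:69352883-69353062 (reverse strand) for Cdk1, chr7:135716350-135716529 (reverse strand) for Mki67 and chr7:80294301-80294480 (forward strand) for Prc1. The windows of Cdc25b and Nek2 show CCAAT letters and no CHR letters, as does that of Bub1, and those of Mybl2 and Nusap1 show neither. The log2 fold changes of these 5 genes without CHR letters, -0.42, -0.28, 0.08, 0.19 and -0.11, lay on either side of 0. Cenpa, the other gene called in the paired fit, has CHR letters of both forms.

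**Figure D3:**
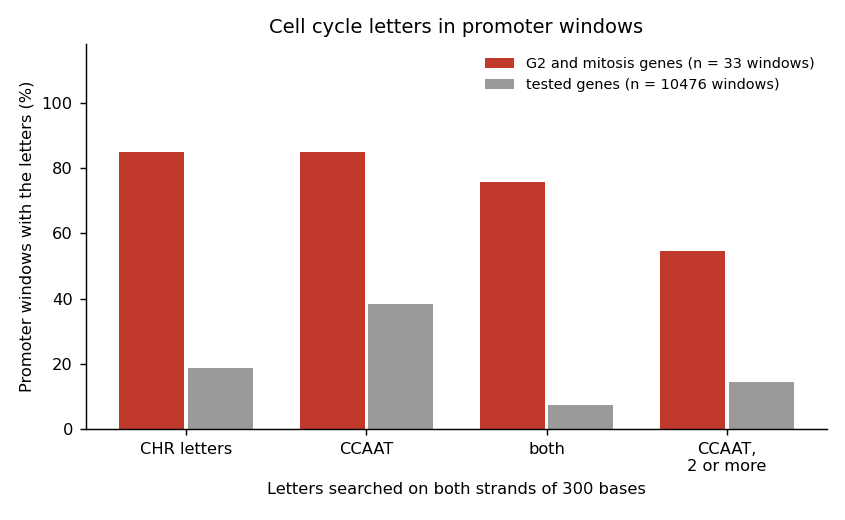
Bars give the percentage of 300-base promoter windows (y axis) that hold CHR letters, CCAAT, both, or CCAAT at 2 or more positions (x axis), for 33 G2 and mitosis genes (red) and 10476 tested genes (grey). The red bar is higher for each search, 84.8% against 18.7% for CHR letters.

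Among the 6 mitotic kinase genes none was called in either edgeR fit. Nek2, the kinase that separates the centrosomes, had the smallest p. It was at 17.0, 15.1 and 17.0 CPM in EV control, and the p27 OE libraries held 15.2, 11.8 and 13.4 CPM, so p27 OE 1 came within the control range. It was lower in each number, by -0.28 ± 0.09 in the paired fit (adjusted p 0.0698), and was called only in the paired fit without the libraries numbered 1 (adjusted p 0.0349). The other 5, Plk1, Aurka, Aurkb, Ttk and Bub1, had log2 fold changes from -0.08 (Aurkb) to 0.10 (Plk1). Plk1, the polo kinase that activates Cdc25 proteins, was at 38.8, 32.8 and 32.6 CPM in EV control, and in p27 OE it stood at 49.1, 29.8 and 32.7 CPM, so a single library set its mean of 37.2 ± 10.4 CPM.

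None of the 3 checkpoint and anaphase-promoting complex genes was called, and in each the groups overlapped. All 3 were higher in p27 OE within number 1 and lower within numbers 2 and 3. Ube2c, the ubiquitin-conjugating enzyme of that complex, was at 43.3, 39.2 and 37.5 CPM in EV control, and its p27 OE levels were 44.9, 33.9 and 32.3 CPM (paired -0.12 ± 0.07, adjusted p 0.333). Cdc20, which activates the complex, changed by -0.10 ± 0.14, and Bub1b, the checkpoint protein that restrains Cdc20, by -0.04 ± 0.19. Of the exonic bases of Ube2c, 22.8% overlap Tnnc2 on the other strand, a gene at a mean of only 0.433 CPM. The chromosomal passenger genes, whose products hold Aurora B at the centromere, likewise showed no call. Cdca8 (borealin) was at 30.6, 33.1 and 32.6 CPM in EV control, and the p27 OE libraries held 33.7, 28.8 and 30.1 CPM. Birc5 (survivin) changed by 0.04 ± 0.20.

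The 3 centromere and kinetochore genes had changes of both signs. Cenpa, the histone H3 variant that marks the centromere, was at 35.6, 36.5 and 37.5 CPM in EV control, and in p27 OE it stood at 32.9, 28.5 and 30.2 CPM. Its control libraries lay within 2 CPM of each other, and the p27 OE libraries all lay below them. In the paired edgeR fit Cenpa fell by 0.26 ± 0.07 (SE, n = 3 pairs, adjusted p 0.0446), 1.20-fold, and its change was -0.26 ± 0.08 (adjusted p 0.683) without pairing. The call was lost without the libraries numbered 2 (adjusted p 0.177) or 3 (0.2765) and in paired DESeq2 (0.106), and it held without those numbered 1 (0.00705). Cenpa occupies chr5:30666777-30674830 of GRCm38, forward strand, and overlaps no other annotated gene. Cenpe, a kinetochore motor, and Cenpf, a large kinetochore protein, had changes above 0 of 0.11 ± 0.15 and 0.26 ± 0.23. Cenpf was at 20.6, 16.2 and 17.8 CPM in EV control, and its p27 OE levels were 29.0, 15.8 and 20.1 CPM.

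**Figure D4:**
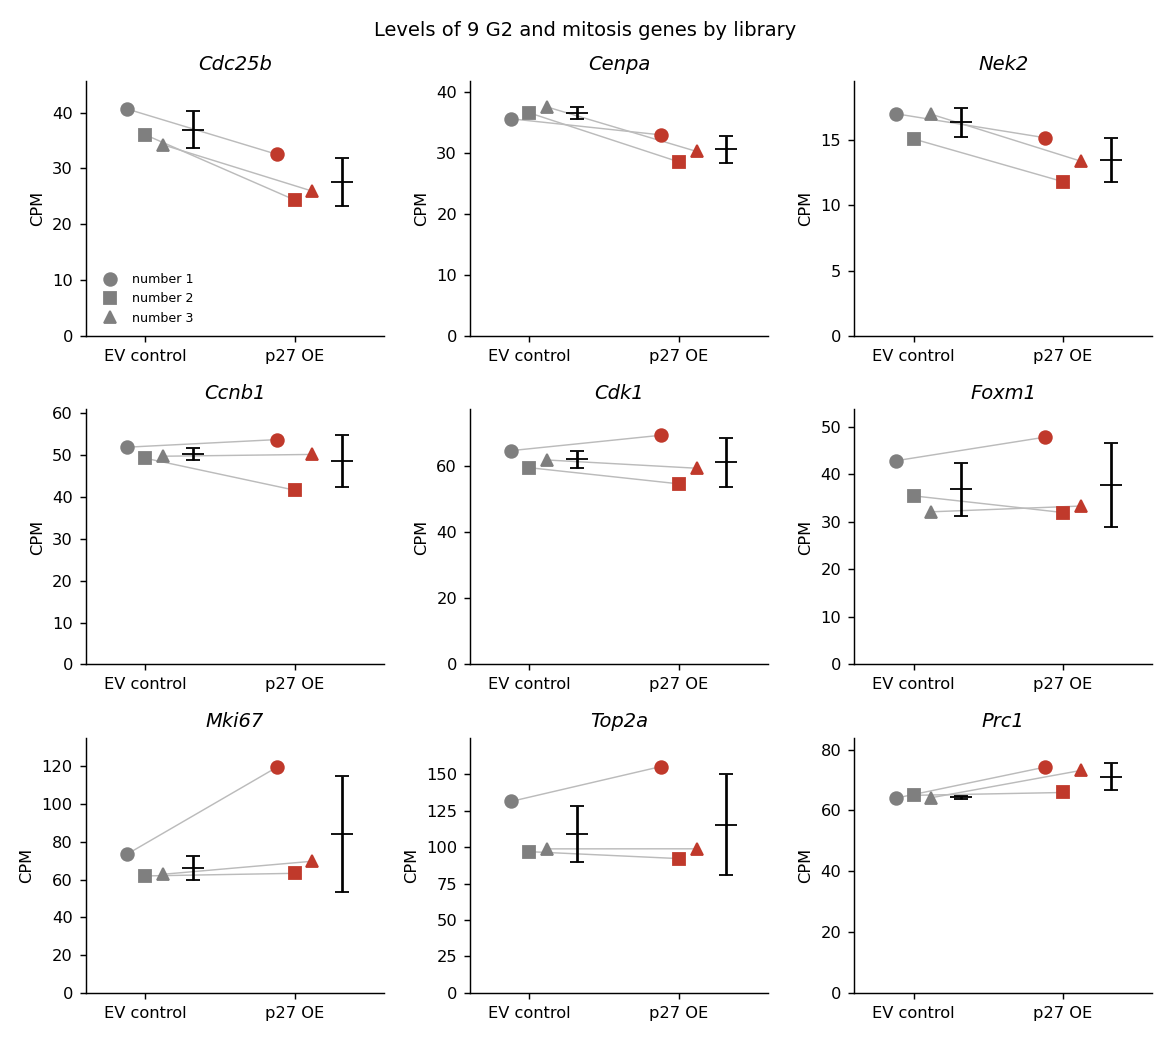
CPM (y axis, from 0) of 9 genes in the 3 EV control (grey) and 3 p27 OE libraries (red), with the symbol giving the library number, a line joining libraries of one number, and black marks for the mean ± SD. Cdc25b and Cenpa show no overlap between the groups with p27 OE lower, Prc1 shows none with p27 OE higher, and the other 6 genes overlap.

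Of the 5 spindle motor and microtubule genes none was called. Kif11, the motor that pushes spindle poles apart, was at 42.4, 27.4 and 29.7 CPM in EV control, and the p27 OE libraries held 44.5, 31.4 and 35.2 CPM, higher in each number (paired 0.17 ± 0.07, adjusted p 0.148). It had the highest ratio of the 39 genes in number 2, 0.20, where most of the others were below 0. Nusap1, a spindle microtubule bundler, was at 24.3, 20.5 and 20.4 CPM in EV control, and in p27 OE it stood at 23.3, 18.1 and 19.0 CPM, lower in each number (-0.11 ± 0.13). Tpx2, the Aurora A activator, varied least over the 6 libraries, from 76.7 to 85.4 CPM. Kif2c, a microtubule-shortening motor protein, and Hmmr, a spindle protein, changed by 0.02 ± 0.17 and -0.01 ± 0.15, and the sign of each turned under another scaling.

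In the central spindle and cytokinesis group, Prc1, which bundles the microtubules between the separating chromosomes, was the one gene whose p27 OE libraries all lay above the controls. It was at 64.0, 65.0 and 64.2 CPM in EV control, and its p27 OE levels were 74.2, 65.9 and 73.1 CPM. The step in number 2 was 0.02 on the log2 scale, against 0.21 and 0.19 in numbers 1 and 3, and the gene was not called (paired 0.14 ± 0.06, adjusted p 0.173). Of its exonic bases 11.1% overlap Rccd1 on the other strand, at a mean of 12.035 CPM. Kif23, Ect2 and Anln changed by 0.07 ± 0.11, 0.09 ± 0.15 and 0.05 ± 0.10, and Kif20a and Racgap1 by -0.07 ± 0.17 and -0.03 ± 0.18. Kif20a shares 29.3% of its exonic bases with Cdc23 on the other strand, a gene at a mean of 81.2 CPM, so its own level is uncertain.

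Among the chromosome structure genes, the changes ran from -0.07 (Smc4) to 0.35 (Mki67) without a call. Mki67, the proliferation marker that coats mitotic chromosomes, was at 73.5, 61.9 and 62.8 CPM in EV control, and the p27 OE libraries held 119, 63.3 and 69.7 CPM. It was higher in each number, by 0.70, 0.03 and 0.15, and p27 OE 1 stood far above the other 5 libraries. Its paired change was 0.30 ± 0.14 (adjusted p 0.304), 0.09 without the libraries numbered 1 and 0.43 (adjusted p 0.00585) without those numbered 2. Top2a, the topoisomerase that untangles sister chromatids, was at 131, 96.9 and 98.8 CPM in EV control, and in p27 OE it stood at 155, 92.1 and 98.8 CPM (0.08 ± 0.23). Smc2, a condensin core subunit, was at 47.5, 35.7 and 36.0 CPM in EV control, and its p27 OE levels were 55.1, 36.7 and 44.9 CPM (paired 0.19 ± 0.07, adjusted p 0.106). Its partners Smc4, Ncapg and Ncapd2 changed by -0.07 ± 0.16, -0.04 ± 0.23 and 0.04 ± 0.30. Without the libraries numbered 2, paired edgeR called Mki67, Cenpf and Smc2 as higher, a fit that rests on 2 pairs.

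Scaled by exonic length, Cdc20 was the most abundant of the 39 in each group, at 29.1 ± 2.59 CPM per kilobase in EV control and 27.2 ± 4.998 in p27 OE (SD, n = 3). Ccnb2 followed at 21.4 ± 3.43 and 19.9 ± 4.21 CPM per kilobase. Next in EV control were Smc4, at 17.2 ± 2.54, Tpx2, at 17.1 ± 1.021, and Plk1, at 15.8 ± 1.58 CPM per kilobase. In p27 OE these stood in another order, Tpx2 at 17.5 ± 0.654, Plk1 at 16.9 ± 4.73 and Smc4 at 16.4 ± 2.91, and in neither group did neighbours among the 3 differ beyond their spread. The lowest were Cenpf, at 1.18 ± 0.144 and 1.41 ± 0.437, and Cdc25c, at 1.47 ± 0.127 and 1.24 ± 0.237. Cdc25b, at 9.92 ± 0.886 and 7.41 ± 1.16 CPM per kilobase, was thus several times more abundant than its relative Cdc25c in each group. Exonic length joins the exons of all annotated transcripts and can far exceed the longest transcript. It was 8225 against 3645 bases for Prc1 and 9013 against 5221 for Top2a, so the order of the genes depends on this choice.

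The fold change was higher for longer transcripts. Over the 39 genes, Spearman's rho between the log2 fold change and the length of the longest transcript was 0.59, and over the 13455 tested genes with a length it was 0.21. Within numbers 1, 2 and 3 it was 0.54, 0.48 and 0.34 over the 39, and 0.28, 0.11 and 0.11 over tested genes. Between the log2 fold change and GC content, rho was -0.34 over the 39 and -0.11 over the 13455. These are correlations across genes of the same 6 libraries, and genes are not independent replicates. The longest transcripts, Cenpf with 11130 bases and Mki67 with 10061, had the highest fold changes. When a trend over length and GC content was removed from each library, a step added after the data were seen, rho over the 39 genes was 0.40, the paired change of Mki67 went from 0.30 to 0.20 and that of Cenpf from 0.23 to 0.11. Cdc25b and Cenpa stayed called, at -0.41 (adjusted p 0.00149) and -0.26 (0.0287), where 4.16% of all genes were called lower, and 0 of the 39 were called higher, where 4.56% were.

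**Figure D5:**
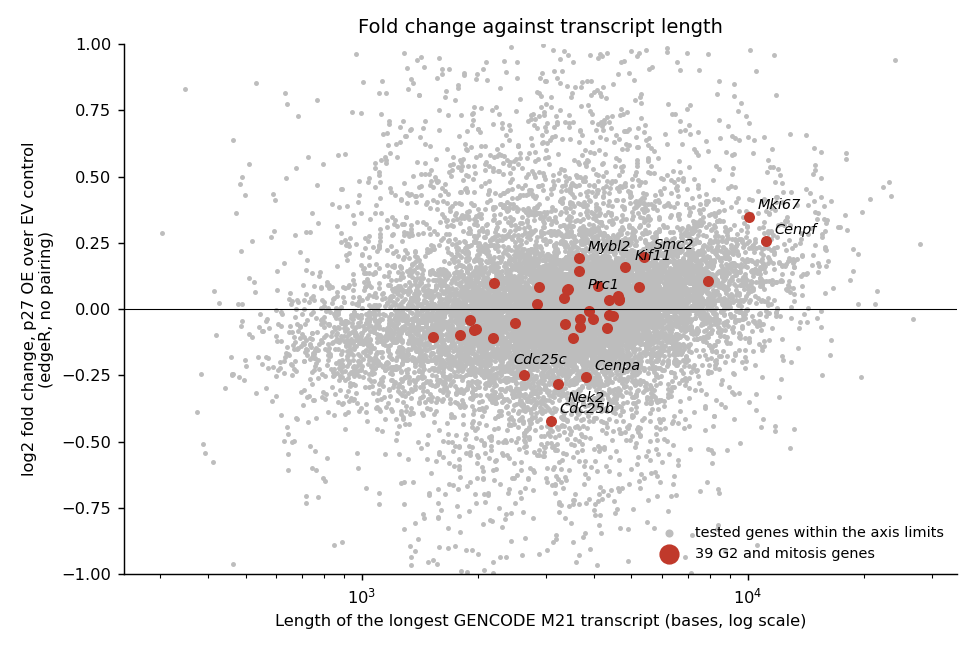
The log2 fold change of p27 OE over EV control by edgeR without pairing (y axis) is plotted against the length of the longest annotated transcript (x axis, log scale), with tested genes in grey and the 39 G2 and mitosis genes in red. Mki67 and Cenpf, the longest of the 39, have the highest values, and Cdc25b the lowest.

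A wider list of 69 other G2 and mitosis genes was looked at in the same way. Paired edgeR called 2 of the 69 lower and 0 higher (3.63% and 3.80% of all genes), and the fit without pairing called 0, with 0 at an unadjusted p under 0.05 and 0 by DESeq2. Ckap2, which stabilises spindle microtubules, was at 41.6, 34.7 and 34.0 CPM in EV control, and the p27 OE libraries held 37.1, 25.05 and 27.5 CPM. It fell by 0.31 ± 0.07 (paired edgeR, adjusted p 0.0236). Psrc1, another spindle protein, was at 75.8, 92.4 and 97.7 CPM in EV control, and in p27 OE it stood at 71.9, 75.2 and 80.7 CPM. It fell by 0.22 ± 0.06 (paired edgeR, adjusted p 0.0459). In both genes the groups overlapped, and each p27 OE library was below the EV control library of its number. Both calls were lost without the libraries numbered 2 (adjusted p 0.119 and 0.197) or 3 (0.114 and 0.329), and Psrc1 also in paired DESeq2 (0.0965) and in paired edgeR with RLE scaling (0.0508) or the length and GC correction (0.0578). The largest changes above 0 were those of Zwilch (0.26) and Shcbp1 (0.21), neither called. By number, 46 of the 69 were higher in number 1, 49 were lower in number 2 and 42 were higher in number 3. The matching shares of all tested genes were 48.6%, 50.8% and 49.7%. Median log2 ratios of the 69 were 0.06, -0.13 and 0.02. For 40 DNA replication and S phase genes the medians were 0.08, -0.09 and 0.09. Paired edgeR called 3 of these 40 higher, Ccne1, Ccne2 and Tk1 (3.80% of all genes), and 0 lower (3.63%). Paired DESeq2 called 2 of them higher (3.36% of all genes), and both fits without pairing called 0. Whether these lists differ was not tested.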

How the data were processed

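RNA was measured in 6 libraries made with the TruSeq RNA kit v2, which does not mark strand, per the labels' protocols. The authors' deposited table holds raw, whole-number counts by gene symbol, not normalized, and 0 of its columns were unmapped. The submitters' processing notes name mm10 as the build and list Subread, featureCounts 1.4.6, Bowtie2 2.2.6 and TopHat2 2.0.14 as tools. Not given in the sources used here are the annotation and how multiply matching reads were counted. Libraries were grouped by title, 3 per group. Replicates differed by more than sampling noise (chi-square per gene of at least 9.74 over genes with 20 counts).

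Genes were kept with filterByExpr (minimum count 10, total 15) and scaled by TMM. CPM uses these scaled library sizes. The test was edgeR 4.0.16 (quasi-likelihood, two-sided, Benjamini-Hochberg over 14090 genes, threshold 0.05, R 4.3.3), without and with the library number as a block. DESeq2 1.42.0 was an alternative. The standard error comes from the F statistic. Deviations from the group mean correlated at 0.77, 0.42 and 0.54 between libraries numbered 1, 2 and 3, each above 0.1. The numbers in the titles were taken as pairs by that rule. The correlation of EV control 3 with p27 OE 2 was 0.41, and that of EV control 2 with p27 OE 3 was 0.39. Because the libraries numbered 1 lay far from the others, these correlations could not decide how numbers 2 and 3 match. Xist went with the numbers, at 5.93 and 9.57 CPM in number 2 and at 0.601 and 0.504 CPM in number 3. It is 1 gene and was not part of the rule. The smallest p of an exact permutation test of 3 against 3 is 0.1.

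Lengths come from GENCODE M21 (GRCm38, the assembly of mm10), which held 13455 of the tested genes, and promoter sequences from RefSeq. The members, lists and tests were chosen with earlier results of these data known. CPM in each library is given for Mki67, Top2a, Ccnb1, Cdk1, Foxm1, called members, the members with the smallest p of each role and those with the extreme ratio in each number. Cdc25c, Plk1 and Cenpf, and Rbl1 and Rbl2 among the DREAM genes, were added after their values were seen. Other settings were RLE and upper-quartile scaling, other filters and leaving out libraries.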

Additional observations from a re-analysis of the deposited data

How the results depend on the processing

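Without pairing, the count of the 39 genes called stayed at 0 in each direction with either other scaling (RLE, upper-quartile), without a filter, with at least 1 CPM required in 3 libraries, DESeq2, the length and GC correction and each library left out. All genes called higher and lower were 51 and 31 with DESeq2, 1 and 0 with no filter and 0 to 1 and 0 with a library left out. With the replicate block they were 535 and 512. The block gave 473 and 334 with DESeq2, 567 and 475 with RLE scaling, 483 and 736 with upper-quartile scaling, and 613 and 560 with the length and GC correction. Of the 39, the block called 2 as lower, also with RLE, upper-quartile scaling and the correction, and 1 with DESeq2, and it changed the call of no other of the 39. Without both libraries of a number, in the paired fit, 893, 503 and 224 of all genes were higher and 848, 425 and 106 lower (numbers 1, 2 and 3), with members higher from 0 to 3 and members lower from 1 to 3. The share of calls that were higher was 51.1% with the block and 39.6% with upper-quartile scaling.

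The median member log2 fold change ranged from -0.16 to 0.11 with a library left out, and the log2 ratio of the summed member level from -0.14 (without p27 OE 1) to 0.12, against 0.016 with all 6. Signs of uncalled changes near 0 turned in at most 2 of the 39 genes under other scalings, filters and tools. When a library was left out, signs turned in up to 13 of the 39, not only in changes near 0.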
